A study of Mus musculus with 6 samples.

Results

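The genes of MHC class II antigen presentation were followed in kidneys of cisplatin-treated mice with and without TRPM2, a calcium-permeable cation channel opened by ADP-ribose. The 7 members were chosen by gene name. They are the class II chains H2-Aa, H2-Ab1 and H2-Eb1, the invariant chain Cd74, the peptide exchange factor subunits H2-DMa and H2-DMb1, and the transactivator Ciita. All 7 were found among the 54532 genes of the deposited tables, and all 7 passed the filter on low counts, which kept 15816 genes. RNA was sequenced from 3 kidneys of WT mice (numbered 1, 2 and 3) and 3 kidneys of Trpm2-/- mice (labelled KO and numbered 1, 2 and 4). All mice were C57BL/6J and 6 to 8 weeks old by the labels (the methods give a slightly older range), and were taken 72 h after 18 mg/kg cisplatin, an antitumor drug that injures the proximal tubule. No kidney without cisplatin was analysed here, so the comparison is of genotypes under injury. The Trpm2-/- allele is carried by every cell of the mouse, and its product lacks a part of the membrane domain and forms no working channel. According to the methods, the WT mice were purchased and the mutant line came from another institution, so genotype and origin of the mice cannot be told apart. The p-values set the difference between genotypes against the spread between libraries of a genotype, an estimate that borrows information across genes.

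Class II molecules carry peptides from endocytosed proteins to the cell surface, where CD4+ T cells read them. The alpha and beta chains pair in the endoplasmic reticulum with the invariant chain, which fills the groove until lysosomal proteases trim it to a short remnant, and the H2-DM dimer then exchanges this remnant for peptide. Transcription of the whole set depends on Ciita, which binds no DNA itself and is held at the promoters by the RFX complex, CREB and NF-Y. These factors occupy a module of X and Y boxes just ahead of the transcription start, and interferon gamma is the best known inducer of Ciita outside professional antigen-presenting cells. In kidney, class II is carried mainly by resident macrophages and dendritic cells. Mice of the C57BL/6 background have the b haplotype, in which the H2-Ea gene is defective, so that H2-Eb1 RNA is made without a partner chain.

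The X and Y boxes are the letters through which Ciita reaches these genes, so the promoters are shown for the members for which RefSeq gave a window at the deposited gene start. Each window of 300 bases runs from 250 bases before to 50 bases after the start of a RefSeq transcript on GRCm38.p6, written 5′ to 3′ on the strand of the gene, with matches to the X box core (AG, any base, AAC, any 3 bases, TG) and to the Y box core CCAAT (or its reverse complement ATTGG) in capitals.
H2-Eb1, chr17:34305617-34305916, plus strand: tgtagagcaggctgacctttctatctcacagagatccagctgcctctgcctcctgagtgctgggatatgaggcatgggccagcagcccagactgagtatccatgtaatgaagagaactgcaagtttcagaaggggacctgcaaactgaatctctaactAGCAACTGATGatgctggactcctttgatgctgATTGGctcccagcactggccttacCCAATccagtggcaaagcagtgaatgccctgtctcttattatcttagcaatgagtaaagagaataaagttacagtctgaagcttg
H2-DMb1, chr17:34152941-34153240, plus strand: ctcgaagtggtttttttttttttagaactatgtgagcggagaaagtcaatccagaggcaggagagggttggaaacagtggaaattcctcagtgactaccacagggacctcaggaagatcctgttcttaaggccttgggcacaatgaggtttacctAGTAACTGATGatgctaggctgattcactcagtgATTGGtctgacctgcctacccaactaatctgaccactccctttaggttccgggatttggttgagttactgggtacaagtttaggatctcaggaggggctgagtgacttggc
H2-Aa, chr17:34287774-34288073, minus strand: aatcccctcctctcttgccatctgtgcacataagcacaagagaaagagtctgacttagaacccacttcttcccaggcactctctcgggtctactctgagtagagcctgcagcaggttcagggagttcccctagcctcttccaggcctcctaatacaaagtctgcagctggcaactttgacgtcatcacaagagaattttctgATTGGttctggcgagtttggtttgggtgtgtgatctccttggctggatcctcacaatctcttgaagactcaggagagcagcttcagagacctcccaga
In H2-Eb1 the X box core AGCAACTGATG began 92 bases before the start, and the reverse Y box followed 33 bases further on, counted from the first base of each. H2-DMb1 had the same arrangement, with AGTAACTGATG at 95 bases before the start and the reverse Y box 34 bases further on. The H2-Aa window held a reverse Y box at 48 bases before the start and no match to these X box letters. H2-Eb1 had a further forward CCAAT at 35 bases before the start, and no match overlapped another.

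**Figure D1:**
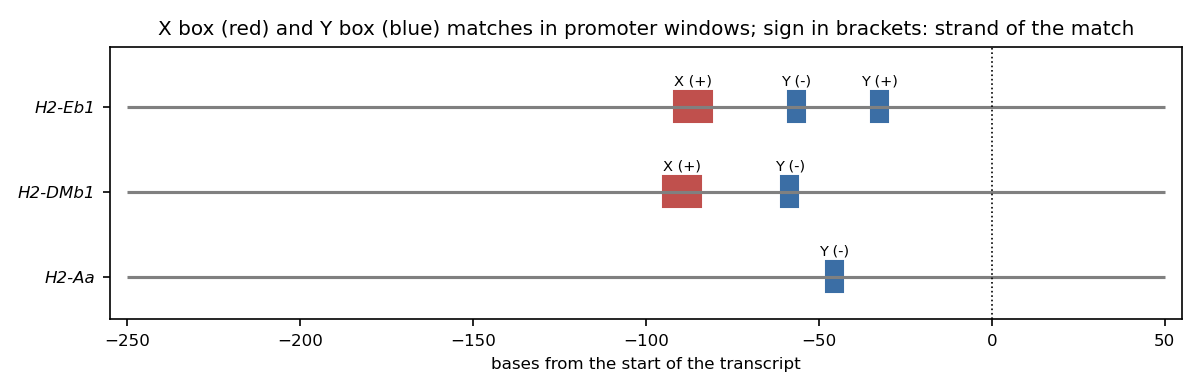
Position of X box core and Y box core matches (x axis, bases from the start of the transcript at 0) in the promoter windows of H2-Eb1, H2-DMb1 and H2-Aa, with the strand of each match in brackets. In H2-Eb1 and H2-DMb1 an X box core stands 33 and 34 bases ahead of a reverse Y box, and in H2-Aa only the reverse Y box was matched.

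Searched on both strands, the Y box core was present in 37.4% of 32851 RefSeq windows of 300 bases and the X box core in 4.18%. An X box core followed by a reverse Y box within 60 bases occurred in 28 windows (0.0852%), a pairing rule that was written after these windows had been read. TTCNNNGAA, the letters of an interferon gamma activated site, and CACGTG, an E box, were held by 8.3% and 7.15% of windows and by none of the H2-Eb1, H2-DMb1 and H2-Aa windows. Of the 7 members, 4 matched the RefSeq table. The windows of the fourth, H2-DMa, lie upstream of the deposited gene start and are not shown. Of the genes with the X and Y arrangement, H2-Eb1 passed the test between genotypes and H2-DMb1 did not, and the difference between their changes was not tested.

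Total counts on genes were 15991951 to 17150089 in the WT libraries and 14053307 to 16150446 in the Trpm2-/- libraries. At these depths 3 counts correspond to 0.184 to 0.205 CPM (counts scaled to library size, after TMM normalization), which covers counting error only. Trpm2 itself had 5, 5 and 27 counts in WT and 10, 16 and 20 in Trpm2-/- libraries (log2 fold change 0.36 ± 0.675 SE, adjusted p = 0.776). The gene-level count covers the exons that the allele keeps, so it does not check the genotype labels. Markers of the labelled tissue were abundant in every library, with a summed level of the 7 tubule genes between 1186 and 4893 CPM.

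In Trpm2-/- kidneys the RNA of H2-Ab1 fell to 39.6% and that of H2-Eb1 to 27.8% of the WT mean, and both class II beta chains passed the test across all genes. H2-Aa, at 28.4%, and Cd74, at 48.2%, had point estimates of similar size without passing the adjusted threshold. H2-DMa and H2-DMb1, the subunits of the peptide exchange factor, stood at 84.9% and 87.6% of WT and were not called, and Ciita, at 52.9%, rested on few reads. Whether the change differed between members was not tested. In bulk kidney, fewer class II-bearing cells and less class II RNA per cell cannot be told apart.

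**Figure D2:**
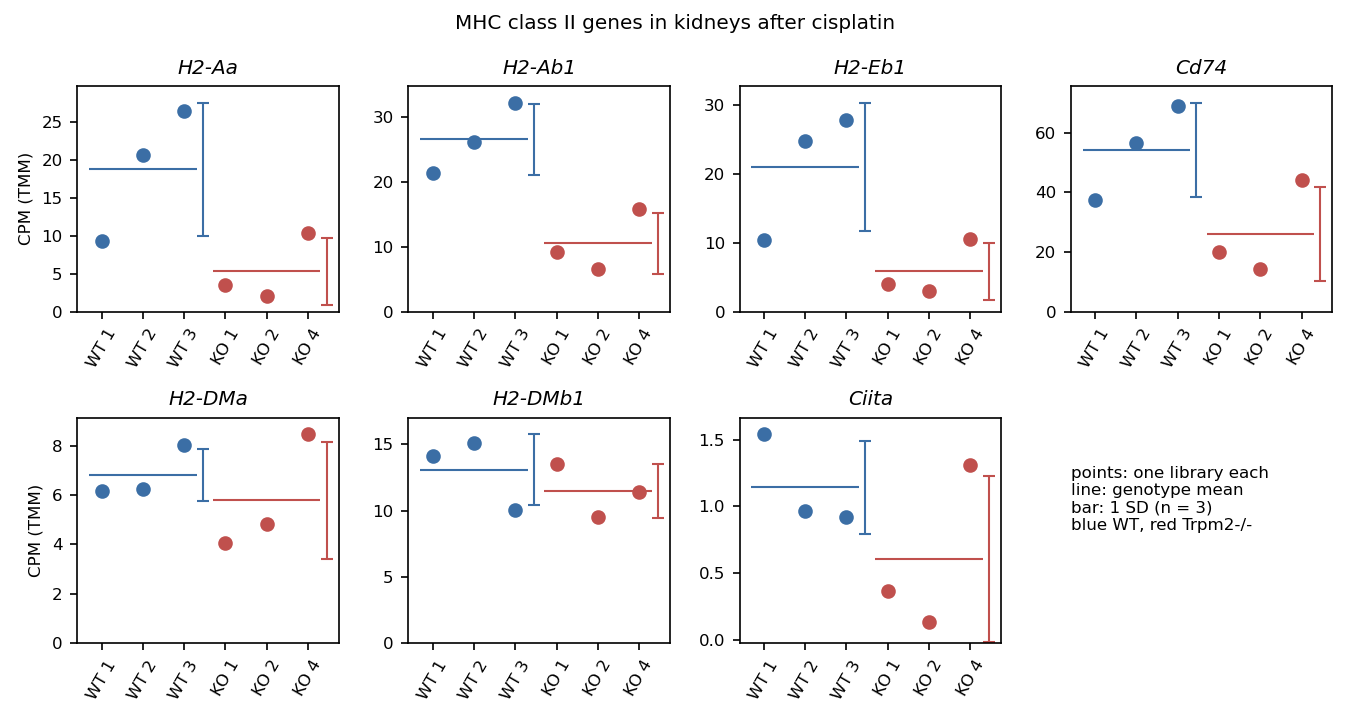
CPM (y axis, linear, TMM-normalized) of the 7 members in each of the 6 libraries (x axis), with genotype means as lines and 1 SD as bars (n = 3 per genotype). Only for H2-Ab1 do all Trpm2-/- libraries lie below all WT libraries, and Trpm2-/- library 4 is the highest of its genotype for every gene except H2-DMb1.

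H2-Ab1 (ENSMUSG00000073421, chromosome 17, 34263209 to 34269418, plus strand) encodes the beta chain of I-A, the class II molecule that C57BL/6 mice display. Its level was 21.3, 26.1 and 32.2 CPM in WT 1, 2 and 3 and 9.12, 6.62 and 15.8 CPM in Trpm2-/- 1, 2 and 4. Every Trpm2-/- library lay below every WT library. The means were 26.5 ± 5.45 and 10.5 ± 4.72 CPM (SD, n = 3), with a log2 fold change of -1.34 ± 0.299 (SE; adjusted p = 0.0207, edgeR). Counts behind these values were 346 to 525 in WT and 97 to 253 in Trpm2-/- kidneys. The call was lost without WT 2 (adjusted p = 0.0649), WT 3 (0.0891) or Trpm2-/- 1 (0.0728).

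H2-Aa (ENSMUSG00000036594, chromosome 17, 34282744 to 34287827, minus strand) encodes the alpha chain that pairs with H2-Ab1. It was at 9.25, 20.6 and 26.5 CPM in WT and 3.49, 2.12 and 10.4 CPM in Trpm2-/- libraries. WT 1 was low and Trpm2-/- 4 was high, so the genotypes overlapped. With means of 18.8 ± 8.77 and 5.33 ± 4.44 CPM (SD, n = 3), the log2 fold change was -1.81 (standard error 0.550) at an adjusted p of 0.0614, and H2-Aa was not called. It passed without WT 1 (log2 fold change -2.14, adjusted p = 0.0423) and without Trpm2-/- 4 (-2.72, adjusted p = 0.00872).

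H2-Eb1 (ENSMUSG00000060586, chromosome 17, 34305877 to 34316199, plus strand) encodes the beta chain of I-E, which lacks its partner in this haplotype. H2-Ea-ps, the partner gene, had 1 count in a single library and none in the others. H2-Eb1 itself was read at 10.4, 24.8 and 27.8 CPM in WT and 4.04, 2.94 and 10.5 CPM in Trpm2-/- libraries. Trpm2-/- 4 stood just above WT 1, and the other Trpm2-/- libraries were below all WT libraries. The means were 20.98 ± 9.32 and 5.83 ± 4.10 CPM (SD, n = 3), with a log2 fold change of -1.84 ± 0.489 (SE; adjusted p = 0.0391). The call was lost without WT 2 (adjusted p = 0.122), WT 3 (0.140), Trpm2-/- 1 (0.125) or Trpm2-/- 2 (0.0783), and on the FPKM scale (0.0579 and 0.0555).

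Cd74 (ENSMUSG00000024610, chromosome 18, 60803848 to 60812646, plus strand) encodes the invariant chain and was the most abundant member. Its level was 37.5, 56.5 and 68.8 CPM in WT and 20.1, 14.3 and 44.1 CPM in Trpm2-/- libraries. Trpm2-/- 4 exceeded WT 1, and the remaining Trpm2-/- libraries were below the lowest WT library. Means were 54.3 ± 15.8 and 26.1 ± 15.8 CPM (SD, n = 3) and the log2 fold change was -1.05 ± 0.375 (SE) at an adjusted p of 0.0994. Cd74 passed without Trpm2-/- 4 (log2 fold change -1.64, adjusted p = 0.00777) and in the DESeq2 Wald test (-1.05, adjusted p = 0.0218). The deposited Cd74 span also holds the microRNA gene Mir5107 on the same strand.

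H2-DMa (ENSMUSG00000037649, chromosome 17, 34135182 to 34139101, plus strand) and H2-DMb1 (ENSMUSG00000079547, chromosome 17, 34153072 to 34160230, plus strand) encode the alpha chain and a beta chain of the H2-DM dimer. H2-DMa was at 6.17, 6.23 and 8.04 CPM in WT and 4.04, 4.85 and 8.47 CPM in Trpm2-/- libraries. The highest library of all was Trpm2-/- 4, and the log2 fold change was -0.24 ± 0.310 (SE) at an adjusted p of 0.668. Without Trpm2-/- 4 it was -0.61 and still not called (adjusted p = 0.171). H2-DMb1 was at 14.1, 15.1 and 10.1 CPM in WT and 13.5, 9.49 and 11.4 CPM in Trpm2-/- libraries, with a log2 fold change of -0.19 ± 0.222 (SE; adjusted p = 0.624). Both genes overlapped between genotypes. Some reads of these genes may be shared with others, since 7.46% of the 75-base transcript windows of H2-DMa also occur in Brd2 and 15.8% of those of H2-DMb1 in its neighbor H2-DMb2.

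Ciita (ENSMUSG00000022504, chromosome 16, 10480059 to 10528418, plus strand) encodes the transactivator on which the other members depend. It had 25, 15 and 15 counts in WT and 6, 2 and 21 counts in Trpm2-/- libraries, that is 1.54, 0.96 and 0.92 CPM against 0.37, 0.14 and 1.31 CPM. Trpm2-/- 1 and 2 were below every WT library, Trpm2-/- 2 with fewer than 3 counts, and Trpm2-/- 4 was above 2 of the 3 WT libraries. The log2 fold change was -0.90 ± 0.675 (SE) at an adjusted p of 0.425. It was -2.12 without Trpm2-/- 4 (adjusted p = 0.0721) and -0.45 without Trpm2-/- 2 (adjusted p = 0.671), and no difference in Ciita was detected. The deposited Ciita span overlaps Dexi on the opposite strand, and 0.765% of its transcript windows also occur there.

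At an adjusted p under 0.05, 2 of the 7 members were lower (H2-Ab1 and H2-Eb1) and 0 were higher, where 7.28% of all genes tested were lower and 4.74% were higher. The other tools also called 0 members higher, and 0 members were higher at an unadjusted p under 0.05. The share of all genes at an unadjusted p under 0.05 was not counted, here or for the lists below. It is at least 12.0%, the share called at an adjusted p under 0.05 in either direction. Lower calls numbered 3 with DESeq2, 2 with limma-voom and 1 with limma on FPKM. The methods call a gene at a p under 0.05 and a log2 fold change beyond 1 in size; with the unadjusted p, H2-Aa, H2-Ab1, H2-Eb1 and Cd74 were lower, which is 4 of 7 against 4.10% of all genes, and 0 were higher, against 3.50%. Only H2-Ab1 had all Trpm2-/- libraries below all WT libraries, 1 of 7 where 16.8% of all genes did. All 7 log2 fold changes were below 0, as were 48.4% of those of all genes. The median over the members was -1.05 and that over all genes 0.02.

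**Figure D3:**
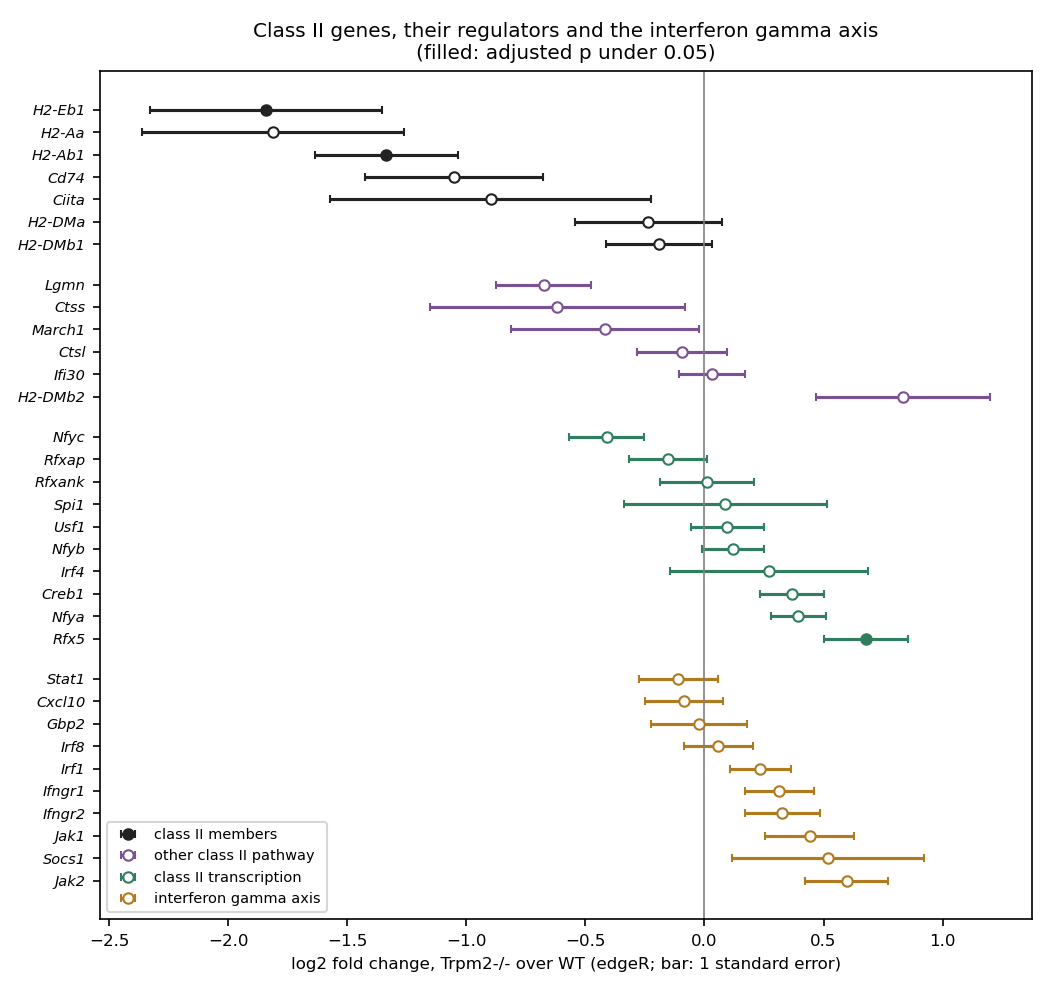
Log2 fold change, Trpm2-/- over WT (x axis, edgeR), with 1 standard error as bars, of the 7 members, the other tested class II pathway genes, the class II transcription factors and the interferon gamma axis; filled points have an adjusted p under 0.05. H2-Ab1 and H2-Eb1 are filled to the left of 0 and Rfx5, at 0.68, is filled to the right.

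Per length of gene, the order of the members in WT kidneys was Cd74 (33.7 ± 9.70 FPKM, SD, n = 3), H2-Eb1 (15.5 ± 6.85), H2-Ab1 (14.2 ± 2.87), H2-Aa (8.76 ± 4.07), H2-DMb1 (7.72 ± 1.59), H2-DMa (3.63 ± 0.554) and Ciita (0.105 ± 0.0321). Cd74 was above H2-Eb1 in level without overlap, and H2-DMa and Ciita were each separated from the gene before them. The ranges of neighbors from H2-Eb1 down to H2-DMb1 overlapped. In Trpm2-/- kidneys the order of FPKM levels was Cd74 (16.4 ± 10.0), H2-DMb1 (6.81 ± 1.21), H2-Ab1 (5.67 ± 2.59), H2-Eb1 (4.36 ± 3.09), H2-DMa (3.11 ± 1.29), H2-Aa (2.52 ± 2.11) and Ciita (0.0561 ± 0.0579). Here the ranges of all neighbors between H2-DMb1 and H2-Aa overlapped. By mean FPKM, H2-DMb1 thus stood below all 3 chains in WT and above them in Trpm2-/- kidneys. The order between genes rests on the deposited gene lengths, which differ unevenly from the lengths of principal transcripts in GENCODE M21. These were 1637 against 1212 bases for H2-Ab1 and 1874 against 1128 for H2-Aa. For H2-Eb1 they were 1184 against 1669 bases, and for H2-DMb1 1485 against 1404. Whether the order holds with the other lengths was not tested.

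Ratios within a library set the exchange factor against the chain that it serves, and were chosen after the values had been seen, so no test is given. H2-DMa to H2-Ab1, in FPKM, was 0.288, 0.238 and 0.249 in WT and 0.442, 0.730 and 0.536 in Trpm2-/- libraries. H2-DMb1 to H2-Ab1 was 0.730, 0.638 and 0.344 in WT and 1.64, 1.58 and 0.797 in Trpm2-/- libraries. Both ratios were higher in every Trpm2-/- library than in any WT library. Their shared denominator, H2-Ab1, was the only member whose own libraries separated by genotype. Ratios of H2-DMa and H2-DMb1 to H2-Aa or H2-Eb1 were not taken, so the separation is shown for H2-Ab1 alone. The ratio of invariant chain to chain, Cd74 to H2-Ab1, was 2.04, 2.52 and 2.48 in WT and 2.56, 2.502 and 3.25 in Trpm2-/- libraries and overlapped. H2-Aa to H2-Ab1 (0.379, 0.691 and 0.719 against 0.334, 0.279 and 0.577) and H2-Eb1 to H2-Ab1 (0.671, 1.31 and 1.19 against 0.612, 0.613 and 0.924) also overlapped, with WT 1 near the Trpm2-/- values.

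No other gene of the pathway passed the test in either direction. Of 10 that were listed, 6 were tested and edgeR called 0. At an unadjusted p under 0.05, 1 was lower and 1 higher, DESeq2 called 1 lower, and the limma fits called 0. The median log2 fold change of the 6 was -0.26. Lgmn, the asparagine endopeptidase that starts cleavage of the invariant chain, was the lower of the pair at 1008 ± 201 CPM in WT and 631 ± 126 CPM in Trpm2-/- kidneys (SD, n = 3; log2 fold change -0.68, standard error 0.200, adjusted p = 0.0561). All Trpm2-/- libraries were below all WT libraries for Lgmn, as for 16.8% of all genes, and it passed without Trpm2-/- 1 (-0.85, adjusted p = 0.0415). The WT level of Lgmn was near that of the tubule genes Slc34a1 (1011 CPM) and Aqp2 (1124 CPM), against 10.8 CPM for Ctss. Which cells carried the Lgmn RNA was not tested. H2-DMb2, the second H2-DM beta chain, stood the other way, with 1.11, 1.03 and 0.92 CPM in WT and 2.20, 1.64 and 1.62 CPM in Trpm2-/- libraries (log2 fold change 0.83, standard error 0.365, adjusted p = 0.170). Of its 75-base windows, 16.2% occur in other genes, H2-DMb1 among them. The sum of H2-DMb1 and H2-DMb2 was 15.2, 16.1 and 10.98 CPM in WT and 15.7, 11.1 and 13.0 CPM in Trpm2-/- libraries.

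Ctss, the protease that removes most of the invariant chain in antigen-presenting cells, was at a log2 fold change of -0.62 ± 0.535 (SE), with an adjusted p of 0.493. Its values, 4.26, 13.4 and 14.7 CPM in WT and 12.7, 3.41 and 4.92 CPM in Trpm2-/- libraries, did not separate the genotypes. Ctsl, a related lysosomal protease, was at -0.09 (adjusted p = 0.791), and Ifi30, the thiol reductase that unfolds antigens, at 0.03 (adjusted p = 0.911). March1, the ubiquitin ligase that removes class II from the surface, was at -0.42 (adjusted p = 0.536). H2-Ob, with 0.396 ± 0.131 CPM in WT and 0.341 ± 0.0955 CPM in Trpm2-/- kidneys (SD, n = 3), H2-Oa, with at most 1 count a library, and H2-Eb2, with 0 counts, did not pass the filter and were not tested.

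H2-Aa, H2-Ab1, H2-Eb1, H2-DMa and H2-DMb1 lie within 181018 bp of chromosome 17 (34135182 to 34316199). The table holds 15 genes in this span, of which 10 were tested. The 5 tested genes that are not members are H2-DMb2 and the class I peptide supply genes Psmb9, Tap1, Psmb8 and Tap2, and edgeR called 0 of these. Tap1, a subunit of the peptide transporter, was at 59.9 CPM in WT and 72.6 CPM in Trpm2-/- kidneys (log2 fold change 0.28, standard error 0.120, adjusted p = 0.163). Both genes of the block that were called, H2-Ab1 and H2-Eb1, are thus members.

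None of the factors that hold Ciita at promoters was called lower. Of 11 class II transcription genes, 10 were tested, 1 was higher and 0 were lower, with a median log2 fold change of 0.11. The shares over all genes were 4.74% higher and 7.28% lower. At an unadjusted p under 0.05, 3 were higher and 1 was lower. The lower gene was Nfyc, an NF-Y subunit (log2 fold change -0.41, standard error 0.158, adjusted p = 0.123). Its Trpm2-/- libraries were all below its WT libraries, as for 16.8% of all genes. DESeq2 called 2 of the list higher and 0 lower, limma-voom 1 higher and 0 lower, and limma on FPKM 0. Rfx5, the largest subunit of the RFX complex that binds the X box, rose from 18.4, 13.0 and 17.9 CPM in WT to 26.2, 23.9 and 29.0 CPM in Trpm2-/- libraries (log2 fold change 0.68, standard error 0.176, adjusted p = 0.0362). Rfx5 was above the WT range in every Trpm2-/- library, against 16.7% of all genes. Its call was lost without WT 1, WT 2, WT 3, Trpm2-/- 1 or Trpm2-/- 4 (adjusted p from 0.0553 to 0.147), on the FPKM scale (0.0567 and 0.0570) and with the replicate number as a block (0.104). Nfya, the NF-Y subunit that contacts the CCAAT letters, was at 0.39 (standard error 0.115, adjusted p = 0.0546; 0.0396 to 0.0475 in 4 alternatives that called it), and Creb1 at 0.37 (standard error 0.134, adjusted p = 0.107).

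Of 12 genes of the interferon gamma axis in the table, 10 were tested and edgeR called 0, with a median log2 fold change of 0.27. At an unadjusted p under 0.05, 2 were higher and 0 lower, DESeq2 called 1 higher, and the limma fits called 0. The share of all genes at that unadjusted threshold is at least 12.0%, both directions together. Ifng had 0 counts in all 6 libraries, which allows up to 0.184 to 0.205 CPM. The receptor-bound kinases Jak2 and Jak1 had log2 fold changes of 0.60 (standard error 0.173; adjusted p = 0.0533) and 0.44 (standard error 0.187, adjusted p = 0.156). Every Trpm2-/- library was above every WT library for both kinases, as was the case for 16.7% of all genes. Jak2 passed in 6 of 17 alternatives, among them edgeR on all 6 libraries with upper quartile normalization (adjusted p = 0.0396) or at least 1 CPM in 3 samples (0.0493), DESeq2 (0.0271) and the fit without Trpm2-/- 4 (0.0424). Ifngr1, the ligand-binding receptor chain, was at 0.31 (standard error 0.146, adjusted p = 0.194).

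Class I presentation, which displays peptides from the cytosol and is carried by nearly all cells, was set beside class II. All 14 genes were tested and edgeR called 0, with a median log2 fold change of 0.02, equal to that of all genes. At an unadjusted p under 0.05, 3 were higher and 1 was lower, DESeq2 called 1 higher, and the limma fits called 0. The smallest p belonged to Nlrc5, the class I counterpart of Ciita, with 11.4, 6.62 and 6.56 CPM in WT and 12.6, 15.8 and 13.4 CPM in Trpm2-/- libraries (log2 fold change 0.76, standard error 0.253, adjusted p = 0.0802). Nlrc5 passed without WT 1 (1.07, adjusted p = 0.0253). It was followed by Tapbpl, a peptide editor of class I (0.35, standard error 0.147, adjusted p = 0.156), and by Tap1. Of 7 co-stimulation genes, 5 were tested, 0 were called by any tool and 0 had an unadjusted p under 0.05. Cd274, Cd40 and Cd80 had log2 fold changes of 0.39, 0.71 and 0.74 (adjusted p = 0.263, 0.284 and 0.403).

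The summed level of the 7 members was 100, 150 and 174 CPM in WT and 54.7, 40.4 and 102 CPM in Trpm2-/- libraries. Markers of the cells that could carry class II were summed in the same way. Leukocyte markers came to 12.6, 29.4 and 31.7 CPM in WT and 33.8, 18.7 and 22.2 CPM in Trpm2-/- libraries, and macrophage markers to 142, 192 and 197 against 188, 123 and 184 CPM. Dendritic cell markers came to 8.70, 12.1 and 16.0 against 12.2, 10.0 and 14.6 CPM. All 3 marker sums overlapped between genotypes, and WT 1 was the lowest WT library in each of them, as it was in the class II sum.

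The class II sum divided by the leukocyte sum was 7.97, 5.11 and 5.51 in WT and 1.62, 2.16 and 4.59 in Trpm2-/- libraries. Divided by the macrophage sum it was 0.706, 0.785 and 0.884 against 0.291, 0.328 and 0.555, and by the dendritic cell sum 11.5, 12.4 and 10.9 against 4.47, 4.03 and 6.97. In each of these 3 ratios every Trpm2-/- library was below every WT library. The 3 ratios share the class II sum as numerator, so they are not separate observations. Of all single genes, 16.8% had all Trpm2-/- libraries below all WT libraries. Much of the macrophage sum came from Cd68 (means 65.5 CPM in WT and 62.9 CPM in Trpm2-/- kidneys) and Mertk (33.5 and 38.1 CPM). Lyz2 entered it at 9.42 and 24.0 CPM. Zbtb46 (5.81 and 7.77 CPM), also a gene of endothelium, made up much of the dendritic cell sum. These ratios thus depend on the markers chosen, and sums without these genes were not taken. The ratio to the B cell sum, 25.8, 78.0 and 86.1 in WT and 24.1, 9.25 and 40.9 in Trpm2-/- libraries, overlapped between genotypes. H2-Ab1 to Ptprc, the pan-leukocyte gene CD45, was 11.9, 8.46 and 9.55 in WT and 1.80, 1.80 and 3.01 in Trpm2-/- libraries. H2-Ab1 to C1qa, a macrophage gene, was 4.33, 1.32 and 1.38 in WT and 1.62, 3.34 and 3.89 in Trpm2-/- libraries and overlapped. The last 2 ratios were chosen after the values had been seen.

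**Figure D4:**
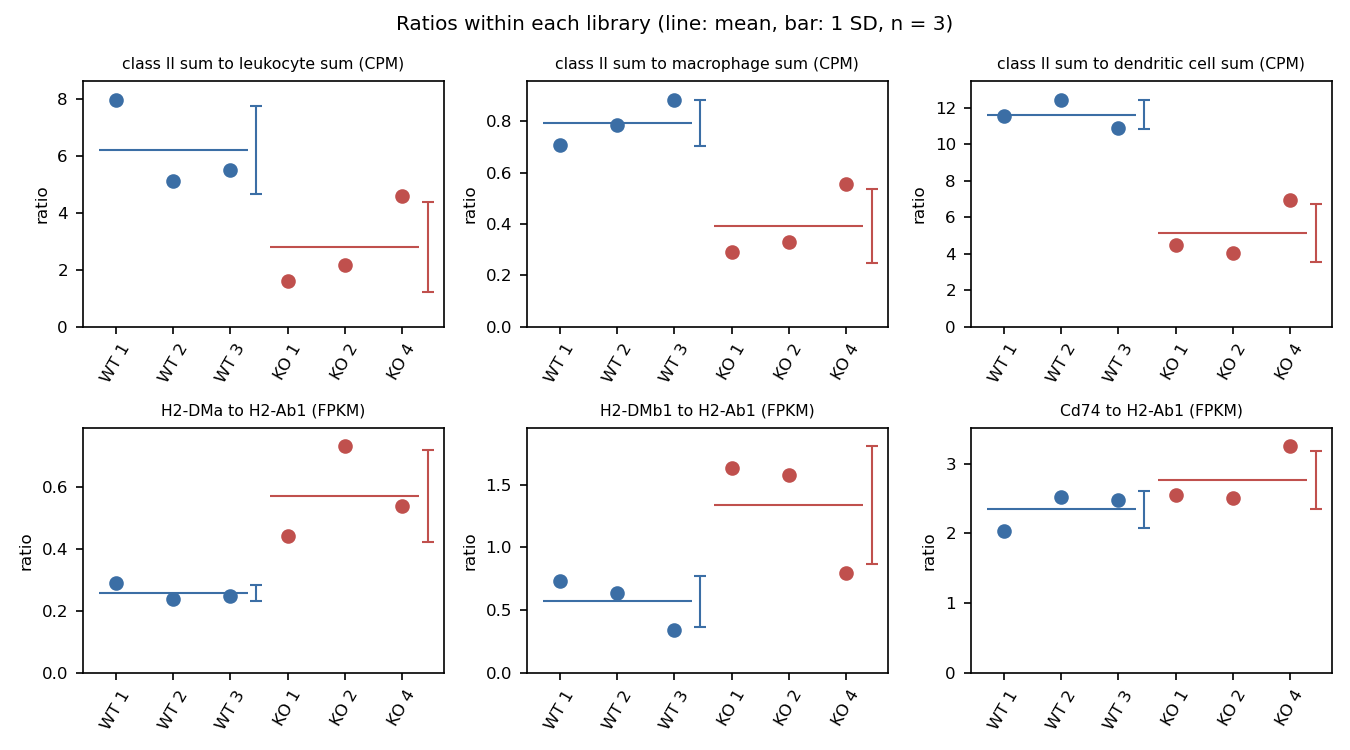
Ratios within each of the 6 libraries (x axis; y axis, ratio of summed CPM in the upper row and of FPKM in the lower row), with genotype means as lines and 1 SD as bars (n = 3 per genotype; blue, WT; red, Trpm2-/-). The class II sum is lower against each of the 3 marker sums in all Trpm2-/- libraries, the H2-DM to H2-Ab1 ratios are higher, and Cd74 to H2-Ab1 overlaps.

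Single markers were less uniform than their sums. Of 14 macrophage genes, all tested, 2 were lower and 0 were higher (median log2 fold change -0.15). Over all genes, 7.28% were lower and 4.74% higher. At an unadjusted p under 0.05 the count was 3 lower and 1 higher, DESeq2 called 3 lower and 0 higher, and the limma fits called 0. The lower genes were C1qa (log2 fold change -2.03, standard error 0.543, adjusted p = 0.0401) and C1qc (-1.88, standard error 0.508, adjusted p = 0.0421), subunits of the first complement component made by tissue macrophages. C1qa was at 4.93, 19.7 and 23.3 CPM in WT and 5.63, 1.98 and 4.05 CPM in Trpm2-/- libraries, so that WT 1 lay within the Trpm2-/- range. Both calls were lost without WT 2, WT 3, Trpm2-/- 1 or Trpm2-/- 2 (adjusted p from 0.0668 to 0.166), that of C1qa also without Trpm2-/- 4 (0.0787), and both with the replicate number as a block (0.246 and 0.125). Lyz2, the lysozyme of myeloid cells, pointed the other way (1.35, standard error 0.468, adjusted p = 0.0911) with 43.1, 12.6 and 16.4 CPM in Trpm2-/- 1, 2 and 4. It passed without Trpm2-/- 2 (1.66, adjusted p = 0.0457) and was at 0.62 without Trpm2-/- 1 (adjusted p = 0.324). The part of macrophage content in the class II difference was not tested.

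Of 7 leukocyte genes edgeR called 0, with a median log2 fold change of 0.41, and 1 was higher at an unadjusted p under 0.05. This was Ptprc (0.76, standard error 0.330, adjusted p = 0.164), higher in every Trpm2-/- library than in any WT library, as were 16.7% of all genes. Laptm5, a lysosomal protein of blood cells, was at -0.70 (adjusted p = 0.326; -1.10 and adjusted p = 0.0425 without WT 1), and Itgb2, the beta 2 integrin, at 0.72 (adjusted p = 0.343; 0.091 and adjusted p = 0.913 without Trpm2-/- 1). Of 10 dendritic cell genes 4 were tested and 0 called, with 0 at an unadjusted p under 0.05. Zbtb46, a transcription factor of classical dendritic cells and of endothelium, was at 0.42 (adjusted p = 0.336), Batf3, a factor of the cross-presenting subset, at -0.48 (adjusted p = 0.456), and Itgax, the integrin CD11c, at -0.53 (adjusted p = 0.578). DESeq2 and the limma fits called 0 genes of either list.

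B cells also carry class II, but their defining marker Ms4a1 had counts in a single library only (0.0613 CPM in WT 3). The B cell list summed to 1.93 to 3.89 CPM in WT and 2.26 to 4.37 CPM in Trpm2-/- libraries. Of its 7 genes, 2 were tested and 0 called by any tool, Fcmr at 0.94 (adjusted p = 0.307) and Cd79a at 0.41 (adjusted p = 0.611). None of the 7 T cell genes passed the filter, with sums of 0.863 to 1.48 CPM in WT and 0.428 to 3.35 CPM in Trpm2-/- libraries. Neutrophils carry little class II. Of their 7 genes 5 were tested and edgeR called 0, DESeq2 called 1 higher and the limma fits called 0. Csf3r, the receptor for granulocyte colony-stimulating factor, was the single gene of that list with an unadjusted p under 0.05 (1.81, standard error 0.531, adjusted p = 0.0549), and it passed without Trpm2-/- 2 (2.04, adjusted p = 0.0469). Retnlg and Cxcr2 were at -0.93 and 0.76 (adjusted p = 0.433 and 0.439).

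Endothelial and tubular markers also moved between libraries. The 6 endothelial genes summed to 85.2, 111 and 123 CPM in WT and 54.5, 60.9 and 201 CPM in Trpm2-/- libraries. Trpm2-/- 4, the Trpm2-/- library with the most class II RNA, thus had the highest endothelial sum of all 6, and edgeR, DESeq2 and the limma fits called 0 of the 6 genes (0 at an unadjusted p under 0.05). Kdr, the main VEGF receptor, was at 1.09 (standard error 0.587, adjusted p = 0.262), Emcn at -0.60 (adjusted p = 0.526) and Cdh5, the endothelial cadherin, at 0.41 (adjusted p = 0.561). Without Trpm2-/- 4, Kdr was at -0.24, Cdh5 at -0.30 and Emcn at -1.86 (adjusted p = 0.00192), and 2 endothelial genes were called lower. In that fit 1031 of all 16251 genes tested were called lower and 782 higher. Of 7 tubule genes, 5 were lower and 0 were higher (median -1.02), where 7.28% of all genes were lower and 4.74% higher. Unadjusted p, DESeq2 and each limma fit also gave 5 lower and 0 higher, and 3 were lower without WT 3. Slc34a1, the proximal phosphate carrier, fell by 2.73 on the log2 scale (standard error 0.399, adjusted p = 0.00391). Slc5a2, the proximal glucose carrier, fell by 1.24 (standard error 0.183, adjusted p = 0.00402), and Aqp2, the collecting duct water channel, fell by 1.02 (standard error 0.169, adjusted p = 0.00602). The part of tubule and endothelial content in the class II values was not tested.

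**Figure D5:**
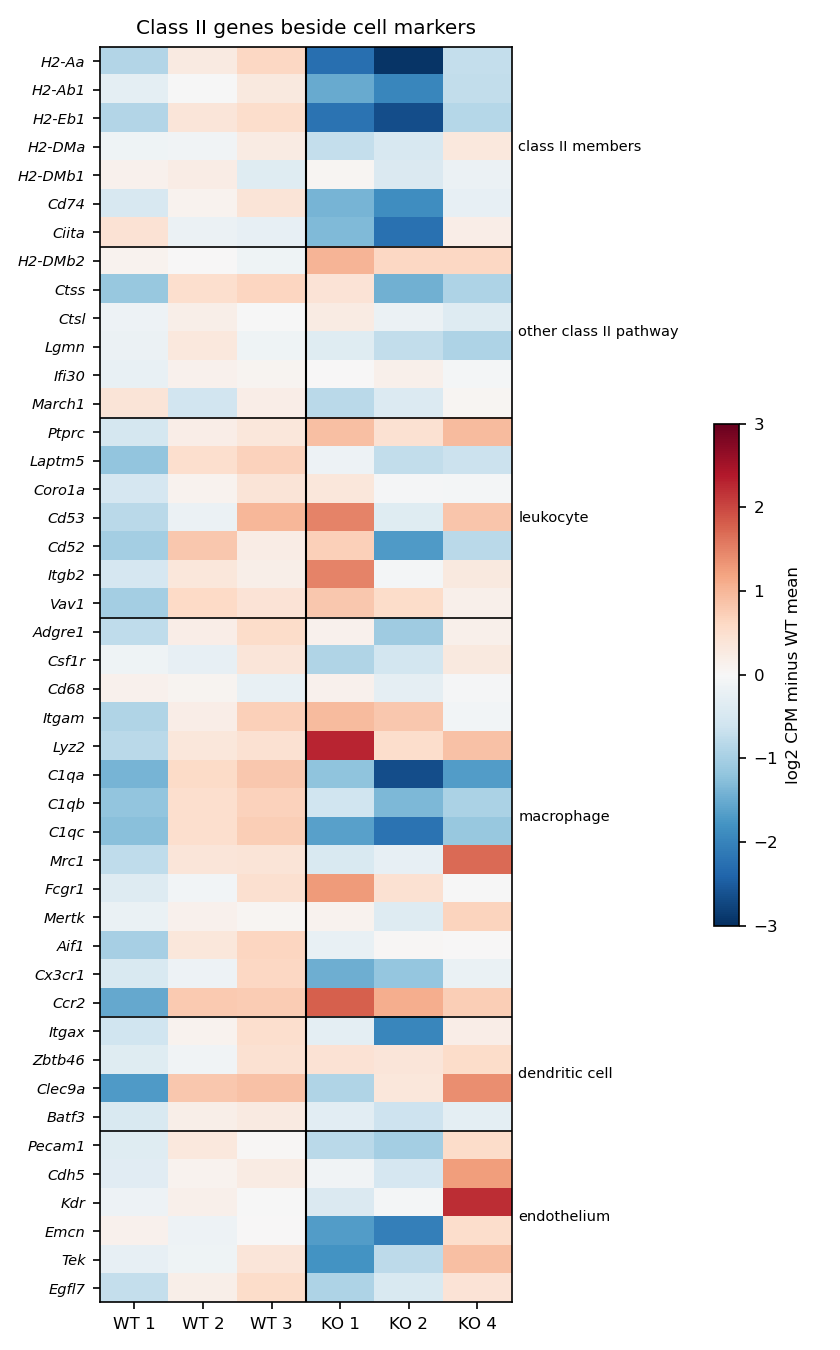
Log2 CPM minus the WT mean (color, red above and blue below) of the members, other tested class II pathway genes and tested leukocyte, macrophage, dendritic cell and endothelial markers (rows) in the 6 libraries (columns). The chains and Cd74 are palest in Trpm2-/- library 4 among the Trpm2-/- libraries, H2-DMb1 stays near 0 throughout, and Ptprc is above 0 in all 3 Trpm2-/- libraries.

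Among themselves the chains and the invariant chain followed each other closely across the 6 libraries. Pearson's r of log2 CPM was 0.996 for H2-Aa with H2-Eb1, 0.995 for H2-Aa with Cd74 and 0.979 for H2-Aa with H2-Ab1. H2-DMa followed them less (0.721 to 0.814), as did Ciita (0.743 to 0.825). H2-DMb1 was at 0.230 to 0.298 with the chains and Cd74 and at -0.20 with H2-DMa. Within genotypes, as deviations from the genotype means, r was 0.938 to 0.993 among the chains and Cd74, and H2-DMb1 was at -0.10 to -0.04 with them. These are descriptions over 6 libraries that share 2 genotypes, and no p is given.

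The genes most like the mean pattern of the members were sought among 13001 tested genes with a mean of at least 1 CPM. The members and genes with provisional Gm or Rik names were left out. Over the 6 libraries these were Fgfbp1 (r = 0.995), Senp3 (0.995), C1qtnf6 (0.990), Phf14 (0.988) and Scnn1a (0.987), an epithelial sodium channel subunit. Their log2 fold changes were -1.21, -0.10, -0.59, -0.26 and -0.58, and edgeR called none of them on all 6 libraries (adjusted p from 0.0926 to 0.603). Scnn1a passed in DESeq2 (adjusted p = 0.0477), with no filter (0.00508), with the replicate number as a block (0.0213) and without Trpm2-/- 4 (0.00851), and Fgfbp1 passed with no filter (0.04997) and without Trpm2-/- 4 (0.0194). On deviations from genotype means they were Snx16 (r = 0.999), Aspa (0.999), Rps12-ps3 (0.999), Lrrc57 (0.996) and Dnase1 (0.996). Of these, Aspa fell by 1.90 on the log2 scale (standard error 0.243, adjusted p = 0.00261) and Dnase1 fell by 3.35 (standard error 0.446, adjusted p = 0.00298). Snx16, Lrrc57 and Rps12-ps3 had log2 fold changes above 0, at 0.50, 0.30 and 0.05, and edgeR did not call them (adjusted p = 0.194, 0.285 and 0.881). Over the 6 libraries the r of these last genes with the members was -0.16, 0.008 and 0.60. The ranking is a description over 6 libraries that share 2 genotypes.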

How the data were processed

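Total RNA of 6 kidneys (3 WT, 3 Trpm2-/-) was extracted with Trizol and sequenced on an Illumina instrument. The authors deposited whole-number read counts per gene, without normalization, and FPKM values, which are these deposited counts divided by gene length and a library total. The submitters' processing notes name HISAT2, StringTie and mm9; strand setting and annotation are not given in the sources used here. The deposited positions equal those of GENCODE M21 on GRCm38 at both ends for 98.3% of 54409 matched gene identifiers, so positions are read as GRCm38. The positions of H2-Ab1 and H2-DMa start 5520 and 15641 bases after the GENCODE ones.

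The counts were fitted with edgeR 4.0.16 under R 4.3.3 (filterByExpr defaults, TMM, two-sided quasi-likelihood test, genotype as the only term, Benjamini-Hochberg adjustment over 15816 genes; called at an adjusted p under 0.05). The SE of a log2 fold change is its size over the square root of F. Replicates of a genotype differed beyond sampling noise, so none was counted as a repeat. Ratios, marker sums and correlations are descriptions. Alternatives used DESeq2 1.42.0 and limma 3.58.1 (on log2(FPKM + 1) and log2(FPKM + 0.1) for FPKM), other filters and normalizations, the replicate number as a block, and each library left out; the test scripts were tested on simulated data. The members and gene lists were chosen with earlier results of these data known. Named genes are the members, every tested gene of the other class II list, the 3 of each other list with the smallest p, the 5 most like the members by each measure, and Trpm2. Ms4a1, Nfyc, Cd68, Mertk, the positional neighbors and genes not tested are named outside this rule. March1 is held in the table under a calendar date and was matched by its identifier. Sequences are from RefSeq.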

Additional observations from a re-analysis of the deposited data

How the results depend on the processing

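With 3 libraries a genotype and 14053307 to 17150089 counts, Ciita rested on 2 to 25 counts a library, and most markers of dendritic, B and T cells did not pass the filter and were not tested. Every member kept a log2 fold change below 0 in the 17 alternatives (Ciita in 16, since it was not tested at 1 CPM in 3 samples). Ranges were -1.74 to -1.10 for H2-Ab1 (called in 14), -2.57 to -1.53 for H2-Eb1 (called in 11), -2.72 to -1.44 for H2-Aa (called in 4), -1.64 to -0.76 for Cd74 (called in 4), -0.61 to -0.03 for H2-DMa, -0.36 to -0.07 for H2-DMb1 and -2.32 to -0.07 for Ciita, the last 3 called in 0. The number of members called lower was 4 without a filter on low counts, 1 with limma on log2(FPKM + 1) and 1 on log2(FPKM + 0.1), and 0 to 4 with a library left out: 0 without WT 2, WT 3 or Trpm2-/- 1, 1 without Trpm2-/- 2, 3 without WT 1 and 4 without Trpm2-/- 4. Genes called higher over the whole table were 1262 without a filter and 160 to 819 with a library left out, and genes called lower 470 to 1240 with a library left out; fewer samples enter these fits. At the threshold of the methods 3 to 5 members were lower in every alternative. Numbers 1 and 2 occur in both genotypes, but same-numbered libraries did not deviate together (r = 0.06 and -0.01). Such single correlations cannot exclude a shared batch or a pairing. With the replicate number as a block, in which WT 3 and Trpm2-/- 4 have no partner and add nothing to the genotype term, 4 members (H2-Aa, H2-Ab1, H2-Eb1, Cd74) were lower, and 661 genes were lower and 341 higher; the calls of Rfx5, C1qa and C1qc were lost, and Emcn and Scnn1a were called lower. On all 6 libraries, Jak2 and Nfya were called higher with upper quartile normalization, at least 1 CPM in 3 samples, protein-coding genes alone and DESeq2, and Jak2 also with no filter. With no filter Lgmn, Emcn, Fgfbp1 and Scnn1a were called lower and Nlrc5, Lyz2, Csf3r and Kdr higher, and with DESeq2 Lgmn and Scnn1a lower and Nlrc5 and Csf3r higher. The standard error with no filter was 0.246 for H2-Aa and 0.203 for Kdr, against 0.550 and 0.587 with the filter. For H2-DMb1 it was 0.235 against 0.222. Kdr was called with no filter although Trpm2-/- 4 alone was high (58.9 CPM, against 9.30 and 11.9 CPM in Trpm2-/- 1 and 2). Among other named genes, the log2 fold change reversed with the block for Ctsl (0.023), Kdr (-0.25), Cdh5 (-0.19) and Rps12-ps3 (-0.14). With a library left out it ran from -0.30 to 0.051 for Ctsl, -0.076 to 0.097 for Ifi30, -0.24 to 1.49 for Kdr, -0.30 to 0.72 for Cdh5, -0.16 to 0.21 for Rps12-ps3 and -0.024 to 1.61 for Trpm2. Kdr, Cdh5, Ctsl and Rps12-ps3 reversed without Trpm2-/- 4, Ifi30, Rps12-ps3 and Trpm2 without WT 1, Trpm2 without WT 2, and Ifi30 without Trpm2-/- 2. None of these reversed values was called. No alternative moved the median log2 fold change of all genes beyond 0.06, and the causes of the other changes were not tested.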
